A study of Mus musculus with 30 samples.

Results

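Windows of 100 kb that took at least 2 times as many piggyBac (PB) as Sleeping Beauty (SB) insertions were examined in 30 mouse livers. All livers came from Fah knockout mice, which lack the last enzyme of tyrosine breakdown and model tyrosinemia type I (TT1), and which were treated in vivo with a therapeutic vector of either transposon system. Of these, 17 livers had received the PB vector and 13 the SB vector, and no untreated liver was analysed here. The age, sex and strain of the mice, the vector's gene and promoter, and what sets livers numbered 13 and above apart are not given in the sources used here. Whole livers were lysed, so the sites come from all liver cells together, and insertion sites were mapped by streptavidin-based enrichment sequencing (SBE-seq), in which a biotinylated transposon primer pulls out the junctions between vector and genome.

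A window was a member when it lay on an autosome, held 60 or more site records over the 30 livers, and had a mean PB density at least 2 times the mean SB density. Density is the number of sites per 10000 autosomal sites of the same liver. The rule found 1103 members among 12092 windows with 60 or more records, or 9.12% of them, and among 23964 autosomal windows with any record. Because the rule used PB and SB densities of all 30 livers, the differences between the groups in those livers are given as a description and were not tested.

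PB and SB are cut-and-paste DNA transposons: a transposase excises the vector from its plasmid and inserts it elsewhere. PB inserts at the letters TTAA, a palindrome that reads the same on both strands, and is known to favour open chromatin near active genes and enhancers, whereas SB inserts at TA and is known to spread more evenly. In hepatocytes the genes for plasma proteins, bile acid and drug metabolism and the urea cycle are among the most active. None of this background was measured here.

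No genome of the files' build, GRCm39, was at hand, so the sequence of the windows is not printed and their TTAA letters were not counted. To show what the PB target looks like in liver genes of these regions, RefSeq promoters of the older build GRCm38.p6 are printed with TTAA in capitals. They run from 250 bases before to 50 after a transcription start, 5' to 3' on the gene's strand. Of 23 genes looked up, 17 matched, with 20 promoters, and 14 of those held at least 1 TTAA, beside 52.4% of 32851 promoters of the same length. The promoters of Adk, Ahsg, Apoa1 and Apoa4, genes also named further on, held 0, as did 1 promoter of Fetub. The letters were searched on one strand because they are a palindrome. The 3 shown were picked because they hold several matches and lie in regions described further on: chr19:43782058-43782357, chr5:90460620-90460919 and chr1:88211709-88212008, all on the plus strand, which hold 5, 4 and 3 such matches. A match is a description of letters, and no insertion is placed in these stretches since the builds differ.
Abcc2: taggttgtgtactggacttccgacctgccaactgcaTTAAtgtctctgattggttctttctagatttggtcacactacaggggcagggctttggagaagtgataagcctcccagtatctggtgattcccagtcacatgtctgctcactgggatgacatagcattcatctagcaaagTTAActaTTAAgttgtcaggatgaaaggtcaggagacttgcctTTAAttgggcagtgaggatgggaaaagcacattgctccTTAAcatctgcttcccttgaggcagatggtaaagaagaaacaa
Alb: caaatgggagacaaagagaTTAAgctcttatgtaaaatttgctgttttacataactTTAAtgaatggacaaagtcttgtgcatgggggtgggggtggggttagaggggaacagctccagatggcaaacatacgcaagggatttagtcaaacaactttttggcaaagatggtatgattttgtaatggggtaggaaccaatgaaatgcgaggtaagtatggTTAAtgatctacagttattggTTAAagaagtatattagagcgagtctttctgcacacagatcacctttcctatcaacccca
Ugt1a1: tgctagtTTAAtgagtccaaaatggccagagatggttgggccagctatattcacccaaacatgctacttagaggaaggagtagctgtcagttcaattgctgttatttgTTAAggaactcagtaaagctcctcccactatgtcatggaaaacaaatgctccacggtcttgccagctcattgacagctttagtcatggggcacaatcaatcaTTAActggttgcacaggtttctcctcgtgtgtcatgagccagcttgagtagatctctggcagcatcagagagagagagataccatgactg

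The livers held between 15780 and 119816 autosomal sites in the PB group (median 68734) and between 4670 and 115635 in the SB group (median 78345). SB liver 13, with 4670, stood apart from the other SB livers, whose lowest had 34004. A single site in SB liver 13 is worth 2.14 sites per 10000, and it had no site in 1000 of the 1103 members (90.7%), beside 76.4% of the other windows with 60 or more records. Without it 842 members kept a ratio of at least 2 and 261 fell below. Its density therefore took part in the choice of members. Where a window had no site in it, leaving it out lowers the ratio, and the median ratio over members was 2.29 without it and 2.40 with it. The ratios below include it unless stated.

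The members took 18.7% ± 0.771 of the autosomal sites of a PB liver (SD, n = 17) and 7.19% ± 1.59 of those of an SB liver (SD, n = 13). Their summed density ran from 1743 over a median of 1851 to 2005 sites per 10000 in PB livers, against 231 over 743 to 882 in SB livers. No SB liver reached the lowest PB liver. The lowest SB value was that of liver 13, without which the SB livers began at 673 and averaged 760.1 ± 63.4 (SD, n = 12). In all, 219442 PB and 70070 SB records lay in members.

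Single members held a mean of 0.404 to 4.77 sites per 10000 in PB livers (median 1.64) and of 0.104 to 1.36 in SB livers (median 0.654). The other windows with 60 or more records had a median of 0.496 in PB livers and 0.569 in SB livers. The median of members was thus above that of other windows in both groups, with the wider gap in PB. The PB to SB ratio of members ran from 2.00 to 6.32 with a median of 2.40. It was at least 3 in 213 members, at least 4 in 46 and at least 5 in 12, and under 2.2 in 333. Every PB liver lay above every SB liver in 72 members. That is 0.595% of all windows with 60 or more records, since no other window showed such a separation.

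**Figure D1:**
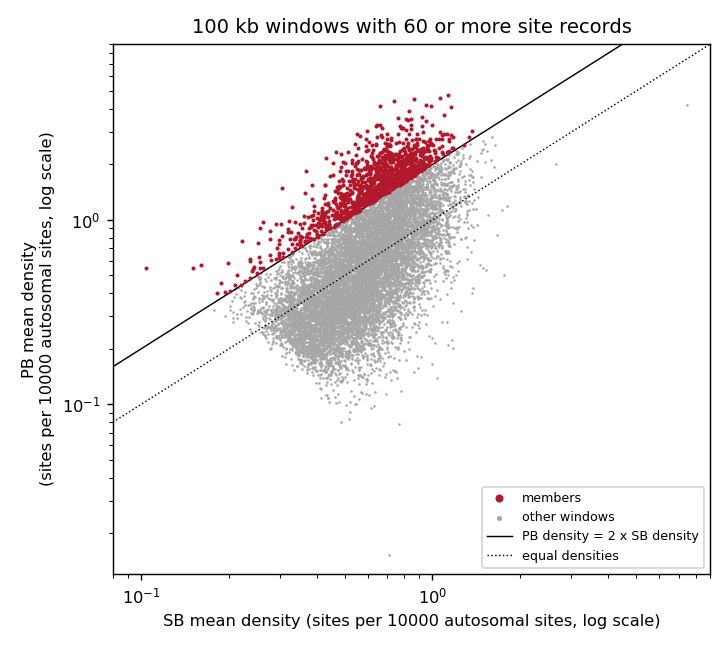
Mean SB density (x axis) and mean PB density (y axis) of the 12092 windows with 60 or more records, in sites per 10000 autosomal sites on log scales. Members (red) lie on or above the solid line at a ratio of 2, and reach 4.77 in PB and 1.36 in SB.

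Around the threshold the values were continuous. The 3 members just inside it, on chromosome 2 at 168.5 Mb, chromosome 16 at 30.3 Mb and chromosome 6 at 120.6 Mb, showed ratios of 2.0005, 2.0011 and 2.0015. The 3 windows just outside, on chromosome 4 at 104.9 Mb, chromosome 16 at 92.1 Mb and chromosome 18 at 39.5 Mb, showed ratios of 1.9997, 1.9996 and 1.9995.

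The member densest in PB lay on chromosome 14 from 21.1 to 21.2 Mb. It held from 3.39 over a median of 4.80 to 6.27 sites per 10000 in PB livers, against 0 over 1.09 to 1.91 in SB livers, a ratio of the means of 4.23 (3.91 without SB liver 13). The groups did not overlap. This region is known to hold Adk, which encodes adenosine kinase, the enzyme that turns adenosine into AMP, and in the GRCm38.p6 gene order its neighbours are Ap3m1 and Kat6b. Genes are named here as background from general knowledge of the mouse map, for whole regions and after the windows had been seen. No window was assigned to a gene through an annotation of its own build.

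On chromosome 1 from 67.1 to 67.2 Mb, where the gene of the urea cycle's first enzyme, Cps1, is known to lie between Lancl1 and Erbb4, PB livers held from 2.30 over 4.26 to 8.40 sites per 10000. SB livers held from 0 over 0.803 to 1.99 there, again without overlap, and the ratio was 5.23 (4.83 without SB liver 13). The chromosome 19 member from 43.7 to 43.8 Mb lies in the region of Abcc2, which exports conjugated bilirubin into bile and whose promoter is shown above. It held from 2.06 over 3.99 to 5.54 sites per 10000 in PB livers, against 0.352 over 0.940 to 2.14 in SB livers. Here the groups overlapped through 1 liver, SB liver 13, whose value of 2.14 is a single site.

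The member with the highest ratio, 6.32, lay on chromosome 7 from 73.2 to 73.3 Mb and is not named for a gene. It held from 2.57 over 4.04 to 6.16 sites per 10000 in PB livers, and SB livers from 0 over 0.759 to 1.18, without overlap. Next by ratio, at 5.98, was the chromosome 5 member from 66.2 to 66.3 Mb, also without overlap, with 2.65 over 4.39 to 6.97 in PB livers and 0 over 0.778 to 1.38 in SB livers. Both ratios were lower without SB liver 13, at 5.84 and 5.52.

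Among the 10 members densest in PB were also windows on chromosome 2 from 126.7 Mb (4.57 ± 1.31 in PB livers, 1.06 ± 0.485 in SB livers), chromosome 12 from 75.5 Mb (4.21 ± 1.35 and 0.951 ± 0.337) and chromosome 6 from 149.0 Mb (4.12 ± 0.743 and 1.16 ± 0.562). These, like all such pairs here, are means with SD over 17 PB and 13 SB livers. None of the 3 overlapped between the groups. The last of the 10 lay on chromosome 1 from 88.0 to 88.1 Mb, in the region of the Ugt1a genes, which encode enzymes that attach glucuronic acid to bilirubin and drugs. It ranged from 1.33 over 3.51 to 6.77 in PB livers and from 0.235 over 0.882 to 4.28 in SB livers. The highest SB value, 4.28, came from SB liver 13, and without it the ratio was 4.49 in place of 3.40.

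**Figure D2:**
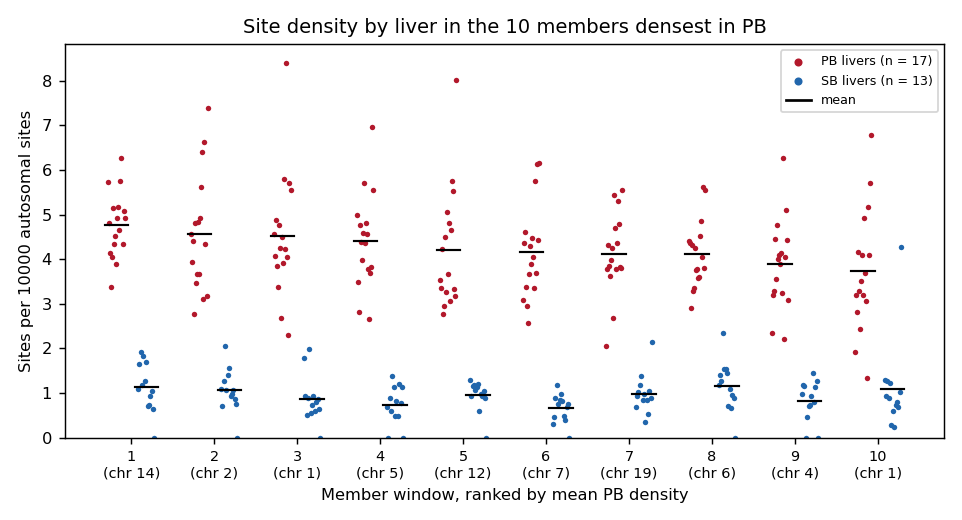
Site density (y axis, sites per 10000 autosomal sites) of each PB liver (red, left, n = 17) and each SB liver (blue, right, n = 13) in the 10 members densest in PB, with black lines at the means. In 8 of the 10 windows every red point lies above every blue point, and in the windows ranked 7 and 10 SB liver 13 reaches into the PB range at 2.14 and 4.28.

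Several members with the highest ratios lie where hepatocyte genes are known. The chromosome 1 member from 136.8 to 136.9 Mb lies in the region of Nr5a2, a nuclear receptor that regulates bile acid synthesis, and had a ratio of 5.10, or 4.71 without SB liver 13 (3.28 ± 1.06 in PB livers, 0.643 ± 0.363 in SB livers). The chromosome 13 member from 4.4 to 4.5 Mb, in the cluster of Akr1c genes for aldo-keto reductases that act on steroids, had a ratio of 5.09, or 4.70 without it (3.04 ± 0.810 and 0.598 ± 0.437). Both overlapped between the groups, since their lowest PB liver held 0.634 sites per 10000.

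The apolipoprotein cluster on chromosome 9, with Apoa1, Apoc3 and Apoa4, whose proteins carry plasma lipids, lies in the region of the member from 46.1 to 46.2 Mb. That member had a ratio of 5.03, or 4.64 without SB liver 13 (1.85 ± 0.808 in PB livers, 0.368 ± 0.276 in SB livers). In the cluster of major urinary protein (Mup) genes on chromosome 4, which encode pheromone carriers made in liver, the member from 60.7 to 60.8 Mb had a ratio of 5.30 (4.89 without SB liver 13) from 69 records only. There the PB livers held from 0.129 over 0.564 to 1.02 sites per 10000, against 0 over 0 to 0.363 in SB livers, and 4 SB livers lay above the lowest PB liver. Also among the 10 with the highest ratios were members on chromosome 3 from 137.9 Mb (ratio 5.28) and chromosome 18 from 51.2 Mb (5.07), which overlapped between the groups and are not named for a gene.

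Most members stood alone. They formed 936 runs of adjacent windows, of which 790 were single windows, 126 had 2 windows, 19 had 3 and 1 had 4. Runs of 2 or more held 313 members (28.4%). Of the 1954 neighbours of members that had 60 or more records, 17.1% were members themselves, beside 9.09% of the neighbours of other windows.

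The longest run lay on chromosome 6 from 98.9 to 99.3 Mb. Its 4 windows together held from 4.30 over 5.68 to 7.60 sites per 10000 in PB livers and from 0 over 2.42 to 3.57 in SB livers, a ratio of 2.46, without overlap. The run of 3 windows densest in PB lay on chromosome 4 from 97.6 to 97.9 Mb, in the region of Nfia, a transcription factor of the nuclear factor I family. It held from 6.32 over 9.22 to 13.1 in PB livers and from 0 over 2.66 to 4.21 in SB livers, a ratio of 3.77. The run around the Adk window on chromosome 14, from 21.0 to 21.3 Mb, held from 7.68 over 8.73 to 10.5 in PB livers and from 1.57 over 2.82 to 4.23 in SB livers, a ratio of 2.94. In each of these runs the lowest PB liver lay above the highest SB liver.

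On chromosome 5 the run from 87.0 to 87.3 Mb lies in the region of the Ugt2 cluster, another family of glucuronosyltransferases. It held from 6.62 over 7.86 to 12.7 in PB livers and from 0 over 3.56 to 5.11 in SB livers, a ratio of 2.47. The megabase from 87 to 88 Mb around it held 6 members among 9 windows with 60 or more records, the most of any megabase. The run from 90.5 to 90.8 Mb, in the region of Alb and Afp, which encode the main plasma protein of adult and of fetal liver, held from 5.75 over 8.36 to 9.39 in PB livers and from 1.47 over 2.91 to 3.96 in SB livers. Its ratio was 2.95, and neither run overlapped between the groups.

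Further runs of 3 windows lie in regions known for liver genes, and were picked from the 20 runs of 3 or more windows for that reason. The chromosome 16 run from 43.0 to 43.3 Mb, in the region of Zbtb20, a repressor of Afp in adult liver, held 7.88 ± 1.09 in PB livers and 2.79 ± 0.720 in SB livers. The chromosome 10 run from 89.3 to 89.6 Mb, in the region of Nr1h4, the bile acid receptor, held 6.34 ± 0.912 and 2.40 ± 1.12. The chromosome 16 run from 22.7 to 23.0 Mb, where Ahsg, Fetub and Kng2 for fetuins and kininogen are known, held 5.23 ± 0.859 and 2.17 ± 0.757.

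By chromosome, members made up between 6.45% of the windows with 60 or more records on chromosome 7 and 11.6% on chromosome 3. Chromosomes 3, 4 and 6 had the highest shares, with 84, 82 and 80 members. Every autosome held at least 36.

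Whether the excess recurred in livers that took no part in the choice was asked by choosing windows again on the odd-numbered livers alone (9 PB and 7 SB), with 32 or more records over these 16 livers and the same ratio. Of 12995 windows with enough records, 1391 were chosen (10.7%), and 928 of them are members. In the even-numbered livers (8 PB and 6 SB) their median ratio was 1.99, against 2.45 in the livers that chose them. PB density was higher than SB density in 1298 of the 1391 (93.3%) and at least 2 times as high in 691 (49.7%), beside 46.3% and 10.5% of all 12995 windows.

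In even-numbered livers the chosen windows together held from 1969 over 2013 to 2102 sites per 10000 in PB livers, against 892 over 948 to 1019 in SB livers. The groups lay far apart, with means of 2023 ± 41.9 (SD, n = 8) and 948 ± 49.4 (SD, n = 6). The difference of 1075, or 2.13-fold, passed the exact two-sided permutation test (p = 0.000333, the smallest this design can give, adjusted p = 0.000732 over 6 single-value tests). Leaving SB liver 13 out of the choice gave 1048 windows and a difference of 934 (exact permutation test, p = 0.000333).

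**Figure D3:**
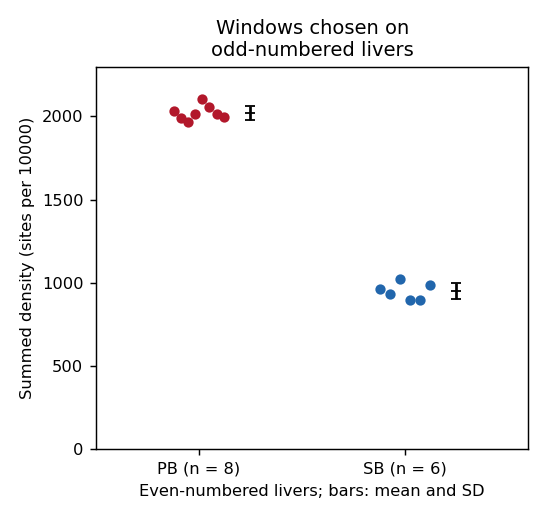
Summed density (y axis, sites per 10000 autosomal sites) of the 1391 windows chosen on odd-numbered livers, in each even-numbered PB liver (left, n = 8) and SB liver (right, n = 6), with mean and SD beside the points. The PB livers sit between 1969 and 2102 and the SB livers between 892 and 1019.

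Window by window, 687 of the 1391 chosen windows had a higher density in even-numbered PB livers and 0 in SB livers (limma-voom, adjusted p under 0.05 over 18865 windows). Over all tested windows the shares were 5.98% higher in PB and 3.51% higher in SB, or 1128 and 663 windows. The count of 0 became 2 at an unadjusted p under 0.05 and stayed 0 with limma-trend. The median log2 difference was 0.98 over the chosen windows and -0.25 over all. Relative to the median of all windows the split of calls was 1896 higher in PB and 289 higher in SB, and 901 of the chosen windows were then called higher in PB.

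Ranked by p-value, the first 9 chosen windows were described above, and the 10th, on chromosome 2 from 103.3 Mb, was not. Those not named for a gene were chromosome 12 from 75.5 Mb (rank 3, log2 difference 2.15, limma adjusted p = 6.63e-09) and chromosome 7 from 73.2 Mb (rank 6). Chromosome 6 from 149.0 Mb (rank 8), chromosome 5 from 66.2 Mb (rank 9) and the chromosome 2 window (2.53, limma adjusted p = 1.43e-08) were also not named for one. In even-numbered livers the Adk window held 4.85 ± 0.797 sites per 10000 in PB (n = 8) and 1.06 ± 0.380 in SB (n = 6), a log2 difference of 2.22 (SE 0.25, limma adjusted p = 4.8e-10). The Abcc2 window followed, with 3.996 ± 0.663 and 0.789 ± 0.297 (log2 difference 2.38, SE 0.29, limma adjusted p = 4.45e-09). The Cps1 window gave 2.24 (SE 0.28, limma adjusted p = 6.71e-09), the Ugt1a window from 88.0 Mb gave 2.55 (SE 0.33, limma adjusted p = 1.11e-08) and the Nfia window from 97.7 Mb gave 2.41 (SE 0.31, limma adjusted p = 1.11e-08). The next windows were picked on all livers, these even-numbered ones included, so their values are a description. The 3 windows of the Alb and Afp run gave log2 differences of 1.59, 1.65 and 1.92. The 3 of the Ugt2 run gave 0.95, 1.34 and 1.22. The Mup window gave 1.67 (SE 0.56, limma adjusted p = 0.0429).

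The named windows were picked on all livers, the even-numbered ones included, so these values describe them and only the choice on odd-numbered livers is independent. No independent support for the regions of the named genes is read from them. The 3 windows of the Zbtb20 run gave log2 differences of 1.21, 1.87 and 1.27. The most uneven member, on chromosome 7 at 28 Mb, gave a log2 difference of 0.92 (limma adjusted p = 0.072).

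Reuse of positions set PB apart from SB within the members. A site was called reused when its position and strand were also found in another liver of the same group. In members, 47.5% ± 1.46 of a PB liver's sites were reused (45.2% to 50.7%, SD, n = 17), against 25.8% ± 1.31 of its sites outside. In SB livers the shares were 2.70% ± 0.615 in members and 2.14% ± 0.151 outside (SD, n = 13). Each PB liver had a higher share inside than outside, and the ranges did not overlap. Reuse rises with density, which the rule used, so these shares were not tested.

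**Figure D4:**
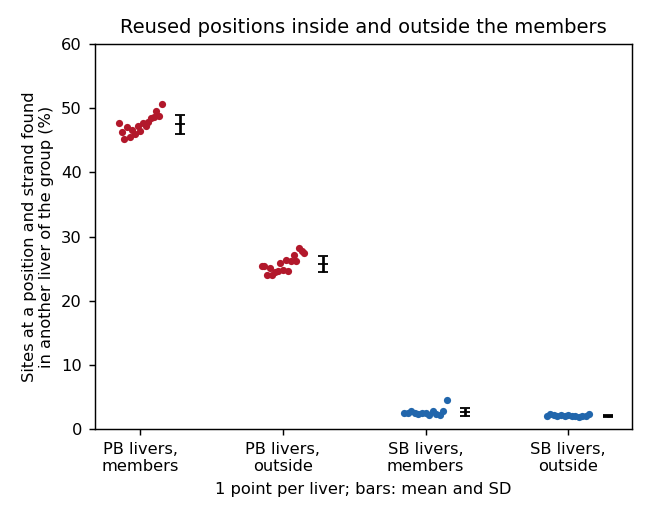
Share of sites at a position and strand also found in another liver of the group (y axis, percent), in members and outside them, 1 point per liver with mean and SD. PB livers lie between 45.2% and 50.7% in members and average 25.8% outside, and SB livers average 2.70% and 2.14%.

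Split by reuse, the PB density in members was 887 ± 61.9 sites per 10000 at reused positions and 979 ± 22.5 at positions of a single liver. In SB livers the densities were 18.6 ± 3.36 and 701 ± 156. The difference between PB and SB was therefore 868 at reused positions and 278 at the others, or 75.7% and 24.3% of the whole. When reused positions were removed in both groups and totals recomputed, members held 1396 ± 53.2 in PB livers and 716 ± 159 in SB livers, a ratio of 1.95 in place of 2.59 (1.84 in place of 2.45 without SB liver 13). The difference was then 680 in place of 1146, so 59.3% of it remained. The share due to reused positions thus depends on the totals used. PB then stayed higher in 1097 of the 1103 members, and 473 kept a ratio of at least 2. Because reuse was so much more common in PB, the removal acted mainly on that group. Reuse was also sought among 17 PB livers but only 13 SB livers.

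The PB records of members lay at 126369 positions, strand ignored, with 1.74 records each, beside 749317 positions with 1.302 records outside the members. Of the positions in members 30.5% were found in at least 2 PB livers and 4.81% in at least 5, against 15.03% and 1.64% outside. A position in at least 5 livers occurred in 98.0% of members and in 50.4% of the other windows with 60 or more records. The most reused position of all members was on chromosome 15 from 10378786 to 10378789 (GRCm39), found in 17 of 17 PB livers with 28 records, 14 of them on the minus strand.

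In 16 livers each, the positions on chromosome 1 from 88213525 to 88213528, chromosome 2 from 126537331 to 126537334 and chromosome 5 from 87684108 to 87684111 followed. So did those on chromosome 13 from 12478522 to 12478525 and chromosome 6 from 94625786 to 94625789. The first of them lies on chromosome 1 in the member from 88.2 to 88.3 Mb, which is not named for a gene. The window from 88.1 to 88.2 Mb, between it and the Ugt1a window from 88.0 Mb, was not a member. The member from 88.2 Mb had the most reuse, with 73.8% of 325 PB records reused. That member held from 1.84 over 2.72 to 3.80 sites per 10000 in PB livers and from 0 over 1.38 to 2.11 in SB livers. Without reused positions its ratio was 0.893 in place of 2.40. The members ranked next by reuse, on chromosome 16 from 93.3 Mb (73.7%) and chromosome 5 at 142.8 Mb (71.0%), gave ratios of 0.942 and 1.17 without them.

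At the other end were members with few records. Reuse was 4.44% on chromosome 2 from 82.2 to 82.3 Mb, 9.09% on chromosome 3 from 55.7 to 55.8 Mb and 10.1% on chromosome 4 from 75.8 to 75.9 Mb, with 45, 44 and 79 PB records. Their ratios without reused positions were 2.69, 3.38 and 2.55, above the 2.10, 2.22 and 2.08 of all records. In the Adk window 48.8% of PB records were reused and the ratio without them was 3.03.

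Inside members the PB sites were gathered in short stretches. For each member the 5 kb bin with most records in odd-numbered PB livers was taken, and the other livers were then measured around it. In even-numbered PB livers 21.4% ± 0.414 of member sites lay in these bins (SD, n = 8), against 4.44% ± 0.488 in SB livers (SD, n = 13), where an even spread would give 5%. Other windows with 60 or more records gave 20.9% ± 0.614 and 5.51% ± 0.370. The PB shares of members and other windows lay close together, with overlapping ranges. The SB share was lower in members than in other windows in 12 of 13 SB livers.

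Summed over the 1103 members, the central bin held 402 ± 18.7 sites per 10000 in even-numbered PB livers and 31.6 ± 7.36 in SB livers, a ratio of 12.7. The bins 5 kb away on either side held 139 ± 9.57 and 136 ± 5.99 in PB livers, against 40.9 ± 9.12 and 39.9 ± 9.10 in SB livers. At 100 kb on either side PB livers held 44.1 ± 2.54 and 44.9 ± 2.65, against 33.0 ± 5.99 and 34.5 ± 3.77 in SB livers, and the ratio was 1.32. The ratio at 50 kb was 1.56. Bins 100 kb away lie outside the member, and the rule used the densities inside it.

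**Figure D5:**
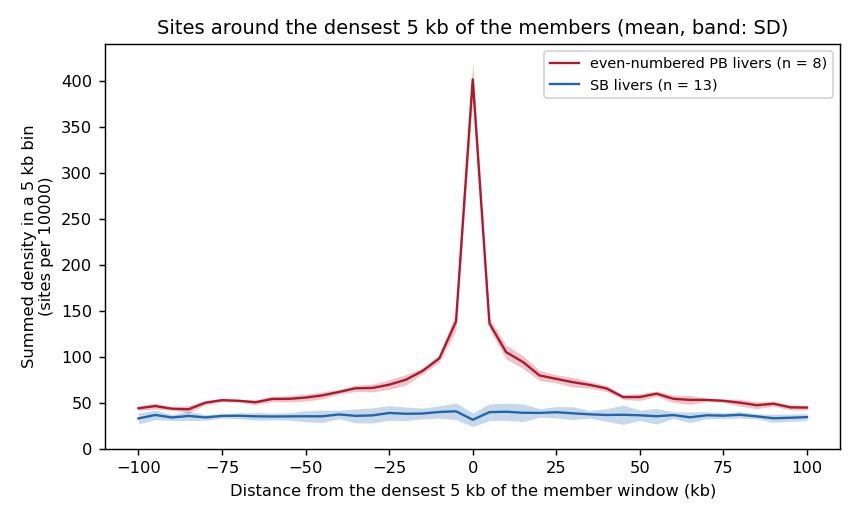
Summed density in 5 kb bins (y axis, sites per 10000 autosomal sites) by distance in kb from the densest 5 kb of each of the 1103 members (x axis), for even-numbered PB livers (red, n = 8) and SB livers (blue, n = 13), with bands of 1 SD. The PB line reaches 402 at the centre and 44.1 and 44.9 at the ends, and the SB line stays near 31.6 to 40.9.

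The stretches differed between members. In the Cps1 window the densest bin, chr1:67140001-67145000, held 77 PB records at 20 positions from 17 livers and 2 SB records. The bin of the chromosome 7 window, chr7:73255001-73260000, held 103 PB records at 20 positions from 17 livers and 0 SB records of 63 in the window. In the Adk window, chr14:21160001-21165000 held 13.9% of the PB records of even-numbered livers, and in the Ugt1a window from 88.0 Mb, chr1:88065001-88070000 held 7.73%. PB sites of these last members were thus less gathered than in the chromosome 7 window, where the share was 24.0%.

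Taken singly, the members varied between PB livers about as much as counting predicts at the median. Their summed density, 1866 ± 77.1 sites per 10000 in PB livers (SD, n = 17), was not compared with counting. Nothing is said here of whether that sum varied more than counting predicts. The variance of PB site counts over livers, divided by the variance expected from Poisson counting at each liver's depth, had a median of 1.01 over members and 0.984 over all windows with 60 or more records. It exceeded 2 in 41 members (3.72%), beside 3.25% of the other windows. In these 41 members the highest liver was PB liver 16 in 11, PB liver 17 in 10 and PB liver 14 in 6, livers with 15780, 16237 and 27118 autosomal sites. A total of 211 members had no site in at least 1 PB liver.

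The most uneven member lay on chromosome 7 at 28 Mb, at 3.64 times the Poisson variance. It held from 0.615 over 1.68 to 7.60 sites per 10000 in PB livers and from 0 over 0.470 to 2.35 in SB livers. The value of 7.60 belonged to PB liver 16, with 12 records, of which 6 positions lay within 5 bp. Their median support, the number the files give beside each site, was 16.5, against 160.0 over that liver. The members on chromosome 10 from 119.7 Mb (3.38) and chromosome 1 from 74.2 Mb (3.22) likewise had a single high liver, PB liver 13 and PB liver 16, with 4 positions within 3 bp and 6 within 5 bp.

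Counting records of a liver within 10 bp as 1 brought these 3 members to 1.22, 0.925 and 0.931 times the Poisson variance, and the number of members above 2 to 20. It also brought the ratios of the last 2 below 2, at 1.82 and 1.75. The chromosome 12 member from 103.9 Mb, near the Serpina1 cluster for the main plasma protease inhibitor, had 3.19 and was highest in PB liver 17 with 8 records, all of them reused and 4 of their positions within 3 bp. The chromosome 8 member from 81.7 Mb had 3.18 and was highest in the same liver, with 3 of 5 positions within 2 bp. Merging brought these members to 1.58 and 2.39 times the Poisson variance and to ratios of 1.91 and 1.997. The steadiest member lay on chromosome 11 from 48.9 to 49.0 Mb, at 0.280, with 0.634 over 1.11 to 1.53 in PB livers and 0 over 0.396 to 1.18 in SB livers. A window of the Nr1h4 run, from 89.5 Mb, was among the 5 steadiest at 0.306, with 1.54 over 2.07 to 3.17 in PB livers.

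Support was compared inside and outside the members as a measure the rule did not use. Within a liver the median support of PB sites was 1.017-fold higher in members (log2 ratio 0.02), above outside in 12 of 17 livers and equal in the other 5 (exact sign-flip permutation test, p = 0.000488, adjusted p = 0.000732). Without reused positions the log2 ratio was 0.0080, above in 8 livers and below in 2 (exact sign-flip permutation test, p = 0.0352). In SB livers it was 1.025-fold higher (log2 ratio 0.04), above in 9 of 13 livers (exact sign-flip permutation test, p = 0.00781, adjusted p = 0.00937), and without SB liver 13 the log2 ratio was 0.022 in place of 0.036 (p = 0.0156). The PB and SB ratios differed by -0.01 on the log2 scale, which did not pass (permutation test, 100000 resamples, p = 0.49). Both ratios were small beside the spread of median support between livers, which ran in members from 17 to 162 in PB livers, while SB livers lay between 35.0 and 100.0.

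The strand of insertion differed slightly. The minus strand held 50.1% ± 0.527 of PB sites in members and 51.1% ± 0.550 outside (SD, n = 17). The difference of -1.08 percentage points was negative in 15 of 17 livers (exact sign-flip permutation test, p = 7.63e-05, adjusted p = 0.000458). In SB livers the difference was -0.616 points, negative in 11 of 13 (exact sign-flip permutation test, p = 0.0022, not in the adjusted family).

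Within the PB group, livers 13 to 17 held 1964, 1918, 1923, 1975 and 2005 sites per 10000 in members, against 1743 over 1825 to 1928 in livers 1 to 12. The ranges overlapped through PB liver 10 at 1928. The means were 1957 ± 36.5 (SD, n = 5) and 1828 ± 52.9 (SD, n = 12), a difference of 129. The members were chosen on the mean of these same livers, in which sparse livers count as much as deep ones, so the permutation p of that difference (exact, p = 0.000485, adjusted p = 0.000732) is not independent of the choice, and no difference between the livers is read from it. The difference was 6.04 when members were chosen on livers 1 to 12 (exact permutation test, p = 0.797) and 34.3 when chosen on pooled records (exact permutation test, p = 0.164).

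No single member passed between PB livers 13 to 17 and 1 to 12 (limma-voom, 0 of 1103 higher and 0 lower), beside 0.107% of all 16755 windows higher and 0% lower. At an unadjusted p under 0.05, 76 of the 1103 members were higher and 10 lower. Over all 16755 windows 2052 were higher and 122 lower, or 12.2% and 0.728%. With limma-trend 3 members were higher and 1 lower. The median log2 difference was 0.14 over members and 0.36 over all windows. Livers 13 to 17 averaged 24177 autosomal sites, against 89483 in livers 1 to 12. The fit adds the same small amount to every count, which weighs more in sparse livers and in windows with few sites. Whether this bears on the shares and medians was not tested. No general rise in livers 13 to 17, and no smaller rise in members, is read from these shares and medians. The smallest adjusted p, 0.0679 in limma, was shared by the window on chromosome 17 at 32 Mb, with 2.29 ± 0.804 sites per 10000 in livers 13 to 17 and 1.01 ± 0.350 in livers 1 to 12, and by the window near the Serpina1 cluster, with 2.85 ± 1.75 and 0.984 ± 0.365. Both were named after their values were seen.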

How the data were processed

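Site tables of 30 livers were used as deposited by the authors, one per liver, with chromosome, start, end, strand and a whole number called support here, whose meaning is not given in the sources used here and whose smallest value is 3. Per the submitters' processing notes the tools included cutadapt and BWA, and the build was GRCm39; no tool version is given there. The deposited merged tables were not used. Livers were grouped by label.

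Sites were counted in 100 kb autosomal windows and divided by each liver's autosomal total. Members, gene lists and tests were chosen with earlier results of these data known. The windows named are the 10 highest by PB density and by ratio, the 5 longest runs (the run of 4, then runs of 3 by PB density), 3 on each side of the threshold, the 5 with largest and smallest spread, and the 3 with most and least reuse, to which further runs at known liver genes were added after their values were seen. Every window averaging 1 site or more over the tested livers entered the fit by voom from limma 3.58.1 under R 4.3.3 (autosomal totals as library sizes, Benjamini-Hochberg), tested on simulated data. Single values were tested by exact or 100000-resample two-sided permutation in Python 3.11.15 with numpy 2.4.6 and pandas 2.3.3, as a family of 6. Each liver was 1 replicate. Libraries went through nested PCR, per the labels' protocols, which mention no molecular identifiers, so support cannot be read as a number of cells.

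Same-numbered livers of the groups were checked for pairing. Of 13 pairs 0 had a correlation of deviations above 0.1 (range -0.00796 to 0.0145), so numbers were not taken to pair livers. Alternatives are listed in the closing section. Counts of TTAA, TA and GC per window, planned for a GRCm39 genome, are not analysed here. Some of the windows and runs that the naming rule selects are not reported here.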

Additional observations from a re-analysis of the deposited data

How the results depend on the processing

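The number of members was 2654 at a ratio of 1.5 and 213 at a ratio of 3, by construction, and 560 without reused positions, of which 467 are members of the full rule. Minimums of 30 or 120 records, pooled records, livers 1 to 12, leaving out SB liver 13, each position once per liver, support of at least 10, merging records within 10 bp (chosen after seeing the data) and windows shifted by 50 kb gave 934 to 1141. The windows themselves changed more than their number. Of the 1103 members, pooled records kept 824 (74.7%), livers 1 to 12 kept 821 (74.4%) and leaving out SB liver 13 kept 842 (76.3%). Chosen windows shifted by 50 kb lay over 821 (74.4%). The other settings of this list kept 1029 (93.3%) or more. Of the windows chosen on odd-numbered livers, 167 in place of 687 were called higher in PB without reused positions, beside 1.24% of all 18635 windows. Their median log2 difference was then 0.66 in place of 0.98, and that of all windows -0.02 in place of -0.25. Fewer PB sites also remained, and the cause of the lower count was not tested. The other alternatives of the count of calls ran from 600 to 901, the lowest with fewer windows chosen, when SB liver 13 was left out. With at least 5 sites per liver 821 were called of 1073 tested.

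With the liver number as a replicate block, 691 of these windows were called, against 748 without the block on the same livers, the summed difference was 1080.4 (exact sign-flip permutation test, p = 0.0312, higher in PB in 6 of 6 pairs) and the support difference -0.01 (p = 0.504). Neither single value changed its side of the threshold. The numbers were not taken to pair livers. The PB minus SB support difference reversed to 0.0017 without SB liver 13 (permutation test, p = 0.838). The summed difference of PB livers 13 to 17 against 1 to 12 was weaker at 6.04 and 34.3 with members chosen on livers 1 to 12 or on pooled records, and the cause was not tested. It ran from 117.4 to 139.1 leaving out each of livers 13 to 17. The window count of that contrast was 4 with limma-trend and ran from 0 to 2 leaving out each of livers 13 to 17. The reused share of PB sites in members was 60.1% with strand ignored. Of the recomputed values 43 were labelled as unchanged, 9 as moved, 2 as weaker and 1 as reversed. A count was unchanged within 1.5-fold of its main value, or when 0 stayed 0. A tested value was unchanged when it kept its direction and side of the threshold. A described value was unchanged when it moved by no more than the spread. Livers with few sites limit single windows, since 1 site of SB liver 13 exceeds the SB mean of every member.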
